A study of Mus musculus with 4 samples.

Results

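The Meis and Pbx genes Meis1, Meis2, Meis3, Pbx2, Pbx3 and Pbx4 were followed across 4 spatial transcriptomes of mouse brain organoids. They were found by gene symbol, without regard to case (the deposited symbols are MEIS1, MEIS2, MEIS3, PBX2, PBX3 and PBX4), and are 6 of the 22218 symbols listed in at least 1 section. All 6 were listed in each of the 4 sections.

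Meis and Pbx proteins are homeodomain transcription factors of the TALE class, which carry extra amino acids in a loop of the homeodomain. A Meis protein binds a Pbx protein, holds it in the nucleus, and the pair binds DNA together with a Hox protein, so these genes are known as Hox cofactors. Meis genes are known targets of retinoic acid, and outside the Hox-expressing hindbrain and spinal cord Meis2 is known from the striatal and olfactory bulb lineages of the forebrain.

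The organoids were grown from CARLIN/Cas9 mouse embryonic stem cells, a line that carries a Cas9-based lineage barcode, and all groups share this genotype. They were kept for 3 months, and from day 9 the medium held either a B27 supplement with vitamin A at 2%, called VitaminA here, or a ligand of the retinoic acid receptors (RARs). The labels do not settle whether B27 was also in the media with ligands. The ligands were ATRA at 1 µM, which activates all RARs, BMS753 at 1 µM, an agonist of RAR alpha, and BMS961+BMS641 at 0.1 µM, agonists of RAR gamma and RAR beta given together. All 4 groups thus received a retinoid. There was 1 section per group, so no comparison below has a replicate check or a p-value. Organoids were frozen together in molds, and how many of them each section cut through is not stated.

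A spot of the array captures polyadenylated RNA from a small region that can hold several cells, and fewer cells of a type and less RNA per cell cannot be told apart. The sections held 552 spots (VitaminA), 593 (ATRA), 469 (BMS753) and 365 (BMS961+BMS641), and spots of a section share 1 library. The deposited values are normalised signals without read counts, so the depth behind each value is unknown. A gene's level is given as ppm, that is, per 1000000 units of the mean signal summed over the genes of that section. In 551, 592, 468 and 364 of the spots, in the same order, the zeros and the lowest positive values followed the order of genes in the file rather than any measured difference, as if 1 tie had been broken by position. A gene is therefore called detected in a spot only where it stood above that lowest tie. A median of 4659, 3388, 3330 and 4462 genes per spot was detected. The choice bears directly on these genes: Meis1 had a value above 0 in 100% of ATRA spots and was detected in 44.0% of them.

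The number of detected genes also differed between rows of the array. In the ATRA section the even-numbered array rows had a median of 4009 detected genes per spot and the odd rows 2845. The same contrast was 3801 against 2920 in BMS753 and 5508.5 against 3431 in BMS961+BMS641, but only 4781.5 against 4397 in VitaminA. Row 50 was the row with the most detected genes in all 3 ligand sections, whereas in VitaminA it ranked 36 of 37 rows with at least 5 spots. Detection of the Meis and Pbx genes differed between these rows too, and values by row are given for detection and for the ratios they touch most.

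Meis3 and Pbx4 had the widest ranges of level over the 4 sections, and the 250 bases upstream of their annotated starts are shown for that reason. RefSeq promoter sequences (build GRCm38.p6) were matched by symbol for 5 of the 6 genes. The Meis3 window is chr7:16175145-16175394 and the Pbx4 window chr8:69832374-69832623, both on the plus strand and printed 5′ to 3′. Capitals mark the single match to a retinoid receptor half-site.
Meis3: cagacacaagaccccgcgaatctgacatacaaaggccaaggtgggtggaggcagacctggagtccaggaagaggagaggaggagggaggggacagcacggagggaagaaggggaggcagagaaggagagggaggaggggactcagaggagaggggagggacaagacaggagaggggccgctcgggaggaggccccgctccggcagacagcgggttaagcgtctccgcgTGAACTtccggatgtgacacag
Pbx4: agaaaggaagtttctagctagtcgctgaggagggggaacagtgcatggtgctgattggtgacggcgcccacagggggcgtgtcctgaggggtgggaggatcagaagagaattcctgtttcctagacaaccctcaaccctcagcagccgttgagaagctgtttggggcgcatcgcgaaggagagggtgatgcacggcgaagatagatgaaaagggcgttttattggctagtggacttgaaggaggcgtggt
The search used 4 spellings of the half-site on both strands. The first was AGGTCA, the next was AGTTCA, another spelling was GGGTCA, and the last one searched was GGTTCA. The Meis3 match, TGAACT at bases 229 to 234 of the window, is AGTTCA read on the minus strand. No half-site letters were found in the windows of Meis1, Meis2, Pbx2 and Pbx4, and 38.6% of 32851 mouse promoter windows of this length held at least 1. None of the 5 windows held a pair of half-sites as a direct repeat with a gap of 5, 2 or 1 bases, nor TGACAG, TGATNNAT or TGATTGAC, the letters searched for Meis or Pbx binding. The share of all windows with a gap-5 repeat was 0.0883%, and 15.9% held TGACAG, 7.68% TGATNNAT and 0.691% TGATTGAC. The Meis3 window had a GC content of 63.6% and the Pbx4 window 55.6%.

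Meis1, a cofactor best known from haematopoietic stem cells and from the developing hindbrain and limb, stood at 96.9 ppm in VitaminA, 50.5 ppm in ATRA, 89.2 ppm in BMS753 and 56.4 ppm in BMS961+BMS641. VitaminA and BMS753 were thus high and ATRA and BMS961+BMS641 low. To see how even a level was within a section, each section was divided into 4 quadrants by position. Quadrant levels ran from 82.1 to 103.5 ppm in VitaminA and from 71.5 to 101.5 ppm in BMS753, against 42.2 to 61.8 ppm in ATRA and 48.6 to 64.1 ppm in BMS961+BMS641. The high and the low sections did not overlap each other, while VitaminA overlapped BMS753 and ATRA overlapped BMS961+BMS641. In the pairs of a high and a low section, 41.7% to 49.2% of all genes had no overlap in either direction. The median of all genes lay in the same direction in each of these pairs, as the ratios below show.

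**Figure D1:**
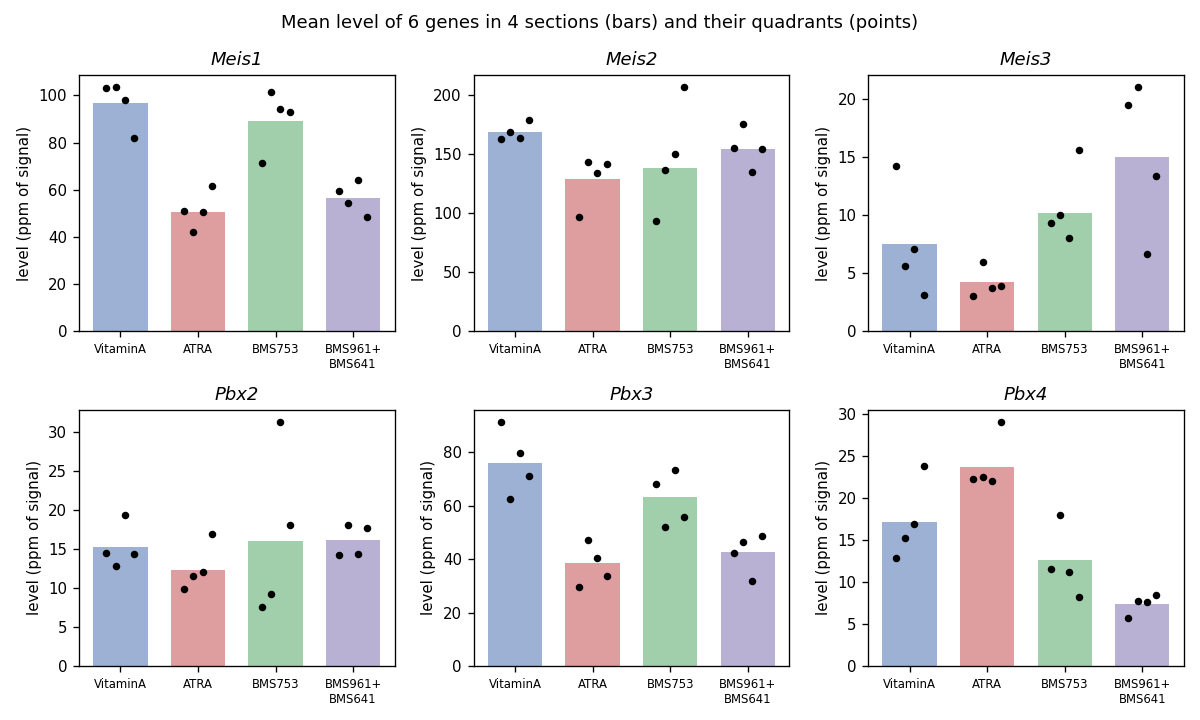
Mean level (ppm of summed signal) of each gene in the 4 sections, as bars, with the 4 quadrants of each section as points; the vertical axes start at 0 and differ between genes. Meis1 and Pbx3 share the order VitaminA, BMS753, BMS961+BMS641, ATRA, whereas Pbx4 was highest in ATRA at 23.7 ppm and lowest in BMS961+BMS641 at 7.43 ppm.

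Meis2, the Meis gene of the striatal and olfactory bulb lineages, had 168 ppm in VitaminA, 129 ppm in ATRA, 138 ppm in BMS753 and 154 ppm in BMS961+BMS641. Its highest level was 1.30 times its lowest. All neighbours in that order overlapped by quadrant, with quadrants of 162 to 178 ppm in VitaminA, 96.3 to 143 ppm in ATRA, 93.6 to 206 ppm in BMS753 and 134 to 175 ppm in BMS961+BMS641. VitaminA and ATRA, the ends of the order, did not overlap, as was so for 49.2% of all genes.

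Meis3, a gene studied mainly in hindbrain patterning and in neural crest cells of the gut, had low levels of 7.50 ppm in VitaminA, 4.26 ppm in ATRA, 10.2 ppm in BMS753 and 15.0 ppm in BMS961+BMS641. The highest level was 3.51 times the lowest. Its quadrants spread widely, over 3.17 to 14.2 ppm in VitaminA, 3.03 to 5.95 ppm in ATRA, 8.02 to 15.6 ppm in BMS753 and 6.69 to 21.0 ppm in BMS961+BMS641. ATRA was lower than BMS753 and BMS961+BMS641 in every pair of quadrants, and neighbours in the order overlapped. Of all genes, 44.2% had no overlap between ATRA and BMS753, and 37% had none between ATRA and BMS961+BMS641.

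Pbx2, a broadly expressed Pbx gene, had nearly the same level in all sections, with 15.2 ppm in VitaminA, 12.3 ppm in ATRA, 16.0 ppm in BMS753 and 16.1 ppm in BMS961+BMS641. Quadrants ran from 7.62 to 31.3 ppm within BMS753 alone, a wider range than between the sections. No order of the sections can be read from this gene, and with the lowest tie set to 0 BMS753 came first.

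Pbx3, known from dorsal spinal cord and hindbrain neurons that control breathing, followed the order of Meis1. It had 76.0 ppm in VitaminA, 38.5 ppm in ATRA, 63.1 ppm in BMS753 and 42.6 ppm in BMS961+BMS641, with quadrants of 62.5 to 91.4, 29.8 to 47.4, 52.0 to 73.3 and 31.8 to 48.9 ppm in the same order. As for Meis1, the high sections VitaminA and BMS753 did not overlap the low ones, where 41.7% to 49.2% of all genes had no overlap.

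Pbx4, which in the adult mouse is known mainly from testis, had 17.1 ppm in VitaminA, 23.7 ppm in ATRA, 12.7 ppm in BMS753 and 7.43 ppm in BMS961+BMS641. ATRA was the highest section for this gene alone among the 6. Its quadrants ran from 12.8 to 23.9 ppm in VitaminA, 22.1 to 29.1 ppm in ATRA, 8.27 to 18.0 ppm in BMS753 and 5.72 to 8.48 ppm in BMS961+BMS641. Neighbours in the order overlapped, but ATRA did not overlap BMS753 or BMS961+BMS641, as was so for 44.2% and 37% of all genes.

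To place these ranges, the log2 distance from the highest to the lowest section was taken for 15841 genes, where the median was 1.28. Pbx2 (0.36) and Meis2 (0.38) varied less than nearly all of them: 1.17% and 1.49% of the genes, respectively, had a smaller range. Among the 1584 genes of most similar mean level the shares were 1.07% and 2.15%. Meis1 (0.93) exceeded 23.4% of genes and Pbx3 (0.96) 26.1%. Meis3 (1.60) and Pbx4 (1.55), the widest of the 6, exceeded 65.6% and 63.5% of genes, so a range of this size was common in these data. Setting the lowest tie to 0 gave 1.04% for Meis2 and 2.16% for Pbx2, and 54.5% and 53.7% for Meis3 and Pbx4. All these ranges are of section means. Pbx2 was detected in 17.1% of BMS753 and 34.2% of BMS961+BMS641 spots. Its level was 12.3 ppm in even and 19.5 ppm in odd rows of BMS753, and 21.7 and 10.5 ppm in those of BMS961+BMS641.

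The share of spots in which a gene was detected gave a second view, with exact 95% binomial intervals that cover counting error only. Meis2 was detected in 87.1% of VitaminA spots, 75.7% of ATRA, 69.7% of BMS753 and 84.1% of BMS961+BMS641 spots. Meis1 reached 63.2%, 44.0%, 50.7% and 55.1%, and Pbx3 63.8%, 45.0%, 45.2% and 56.4%, in the same order. Pbx2 was detected in 25.2%, 24.5%, 17.1% and 34.2% of spots. The shares therefore kept VitaminA above the ATRA and BMS753 sections for Meis1, Meis2 and Pbx3, but for Meis1 and Pbx3 they placed BMS961+BMS641 above BMS753, where the levels had the reverse.

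Meis3 was detected in 73 VitaminA spots (13.2%, interval 10.5 to 16.3%), 48 ATRA spots (8.09%, 6.03 to 10.6%), 61 BMS753 spots (13.0%, 10.1 to 16.4%) and 110 BMS961+BMS641 spots (30.1%, 25.5 to 35.1%). The BMS961+BMS641 share lay above the intervals of all other sections. Pbx4 was detected in 130 VitaminA spots (23.6%, 20.1 to 27.3%), 167 ATRA spots (28.2%, 24.6 to 32.0%), 70 BMS753 spots (14.9%, 11.8 to 18.5%) and 71 BMS961+BMS641 spots (19.5%, 15.5 to 23.9%). ATRA again ranked first for Pbx4, and the lowest share was in BMS753, not in BMS961+BMS641 as for the level.

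Detection was more frequent in spots where more genes were detected. In the ATRA section Meis1 was detected in 30.6% of the spots below the median number of genes and 57.4% of those above it, and Meis2 in 60.6% and 90.9%. Shares were therefore also taken over spots with 3000 to 5000 detected genes, of which there were 284, 270, 174 and 140. There Meis2 stood at 86.6%, 83.0%, 82.8% and 85.0%, a narrower range than over all spots. Meis1 stood at 56.7%, 48.5%, 58.0% and 42.9%, with BMS753 first and BMS961+BMS641 last. Pbx3 stood at 58.1%, 49.3%, 48.3% and 47.1%, so VitaminA remained the highest.

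Within these spots Meis3 was detected in 10.9% (7.54 to 15.1%) of VitaminA, 6.67% (4.00 to 10.3%) of ATRA, 16.1% (11.0 to 22.4%) of BMS753 and 25.0% (18.1 to 33.0%) of BMS961+BMS641 spots. BMS961+BMS641 stayed the highest, and its interval overlapped that of BMS753. Pbx4 was detected in 19.7% (15.3 to 24.8%), 27.4% (22.2 to 33.1%), 16.7% (11.5 to 23.1%) and 12.9% (7.80 to 19.6%) of spots in the same order. With spots of like richness the order of Pbx4 was that of its levels, ATRA first and BMS961+BMS641 last.

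**Figure D2:**
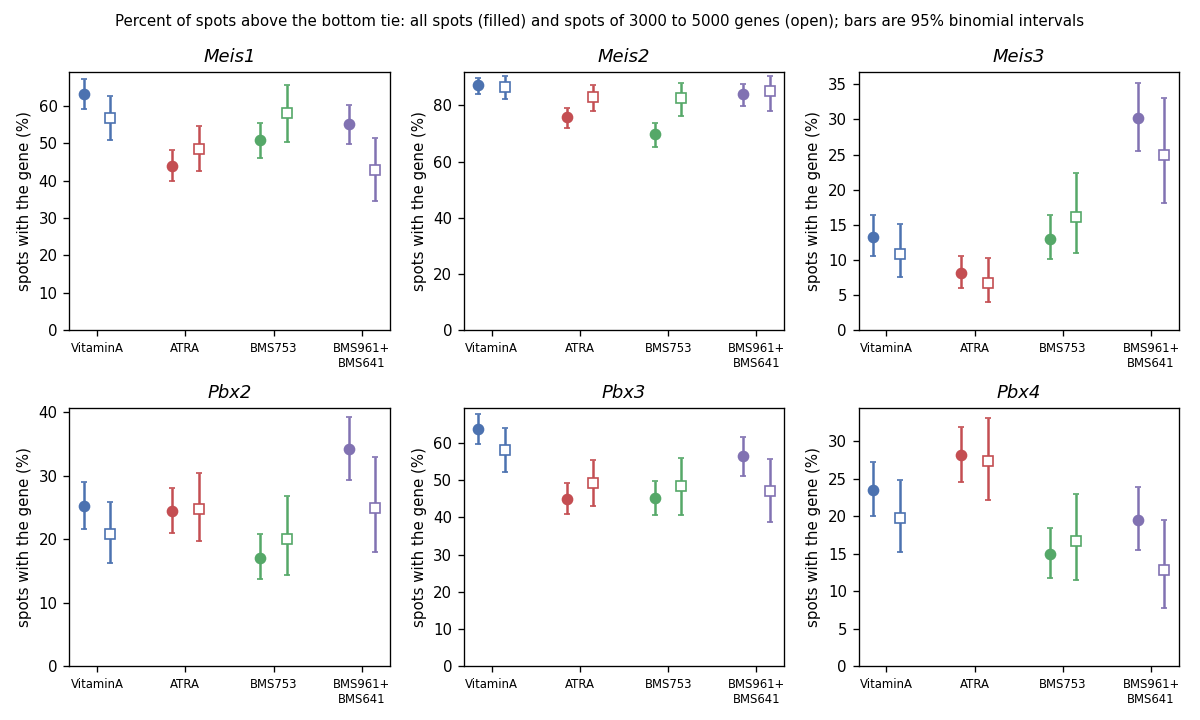
Percent of spots in which each gene was detected, over all spots (filled circles) and over spots with 3000 to 5000 detected genes (open squares), with exact 95% binomial intervals that cover counting error only. The intervals take spots as independent and are no test between sections. Meis3 reached 30.1% of all spots in BMS961+BMS641 against 8.09% in ATRA, and 25.0% against 6.67% in spots of like richness.

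Even and odd rows differed in the detection of single members. In BMS961+BMS641, Pbx3 was detected in 71.7% of even-row and 40.9% of odd-row spots, Meis3 in 37.5% and 22.7%, and Pbx4 in 26.6% and 12.2%. In VitaminA the corresponding shares were 65.6% and 62.0% for Pbx3, 12.7% and 13.8% for Meis3, and 21.4% and 25.7% for Pbx4. All 6 genes were detected more often in even than in odd rows in each of the 3 ligand sections. So was the median gene, which was detected in 10.4% of even-row and 6.08% of odd-row spots in ATRA, 11.2% and 7.59% in BMS753, and 16.3% and 7.73% in BMS961+BMS641. In row 50 of the ATRA section, 17 of 20 spots held Pbx4.

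Levels were also taken by row. Meis3 stood at 6.18 ppm in the even and 2.41 ppm in the odd rows of ATRA, and at 15.6 and 14.3 ppm in those of BMS961+BMS641. Pbx4 stood at 19.7 and 27.6 ppm in ATRA and at 8.51 and 6.34 ppm in BMS961+BMS641. In even and in odd rows alike, BMS961+BMS641 had more Meis3 and less Pbx4 than ATRA.

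**Figure D3:**
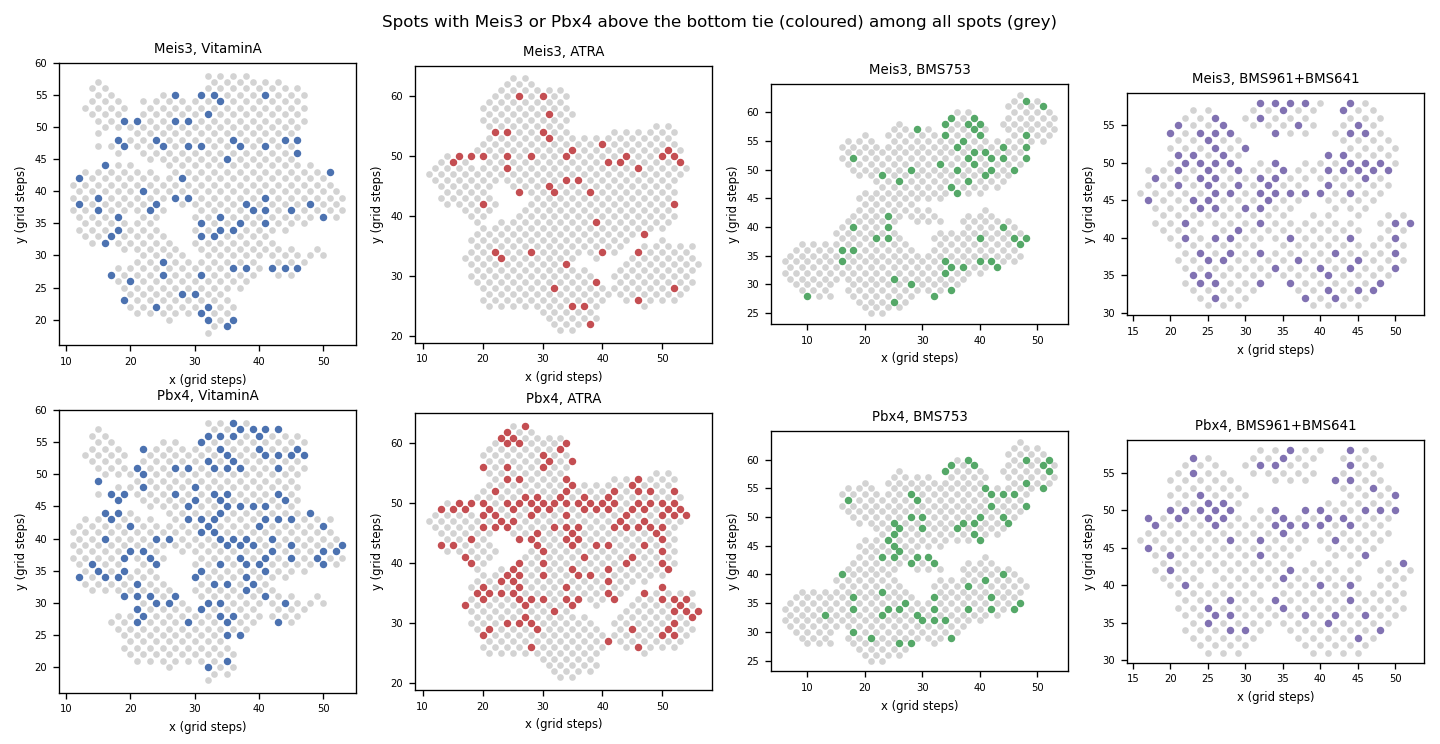
Position of spots in which Meis3 (upper row) or Pbx4 (lower row) was detected, coloured by section, among all spots of the section in grey; axes are array grid steps. Meis3 was detected in 110 spots of BMS961+BMS641 and 48 of ATRA. Row 50 of ATRA held 17 of the 167 Pbx4 spots and 9 of the 48 Meis3 spots.

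Ratios between sections were taken as log2 of the level plus 1 ppm, where at least 1 of the sections compared reached 5 ppm. A ratio of at least 2-fold is used below as a mark of size, and the share of all genes past it is given beside the counts of members. The 3 comparisons with VitaminA share its section, and so are not independent of each other.

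In ATRA against VitaminA, 5 of the 6 genes were lower and Pbx4 was higher, where 35.0% of all genes were higher. Centred on the median of all genes, 4 were lower and 2 higher. Pbx3 had a log2 ratio of -0.96 and Meis1 of -0.93, with -1.59 to -0.39 and -1.27 to -0.40 over the 16 pairs of quadrants. Meis3 had -0.69, Meis2 -0.38 and Pbx2 -0.28, and Pbx4 had 0.44 with -0.10 to 1.12 over quadrant pairs. The median of the 6 was -0.53 and that of all 14794 genes compared -0.33, so the ratios of Meis1 and Pbx3 relative to all genes were -0.60 and -0.63, and that of Pbx4 was 0.77. No member was past 2-fold, against 31.5% of all genes. The quadrants of Meis1, Meis2 and Pbx3 did not overlap, as was so for 49.2% of all genes. By rows, Meis3 was at -0.36 in even rows alone and at -1.18 in odd rows alone.

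For BMS753 against VitaminA the log2 ratios were -0.12 for Meis1, -0.28 for Meis2, 0.40 for Meis3, 0.06 for Pbx2, -0.26 for Pbx3 and -0.41 for Pbx4. None was past 2-fold, against 27.7% of all 15676 genes compared, and all 6 overlapped by quadrant, where 38.1% of genes did not. The median of all genes was 0.31, so 5 of the 6 lay below it and Meis3 above.

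BMS961+BMS641 and VitaminA stood apart in Pbx4, with a log2 ratio of -1.11 and -1.89 to -0.55 over quadrant pairs. It was the only member past 2-fold, and 30% of all 14959 genes compared were past it in either direction. Meis1 at -0.77 and Pbx3 at -0.82 were also lower with no overlap of quadrants, where 46.8% of all genes had none. Meis3 at 0.91 ranged from -0.98 to 2.40 over quadrant pairs, and Meis2 at -0.12 and Pbx2 at 0.07 lay near 0. Relative to the median of all genes, -0.25, Meis3 was at 1.16 and Pbx4 at -0.85, so which of them passed 2-fold depended on the centring. In even rows alone Pbx4 was at -0.91 and in odd rows alone at -1.33. Pbx2 was at 0.66 in even rows and at -0.66 in odd rows.

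BMS753 and ATRA were given at the same dose. Meis3 had a log2 ratio of 1.09 for BMS753 over ATRA (0.38 to 2.04 over quadrant pairs), Meis1 0.81, Pbx3 0.70, Pbx2 0.35 and Meis2 0.10, and Pbx4 had -0.85 (-1.70 to -0.28). Meis3 was the 1 member past 2-fold, against 33.8% of all 14902 genes compared. All genes had a median of 0.71 here. Relative to it Meis1 was at 0.09, Pbx3 at -0.02, Meis3 at 0.37 and Pbx4 at -1.57, so only Pbx4 departed from the bulk of genes by more than 2-fold. Quadrants did not overlap for Meis1, Meis3 and Pbx3, higher, and Pbx4, lower, where 44.2% of all genes had no overlap in either direction. In even rows alone Meis3 was at 0.91 and Pbx4 at -0.58, and in odd rows alone they were at 1.40 and -1.08.

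The other 2 pairs of ligand sections differed in dose as well as in compound, and their values are set side by side. In BMS961+BMS641 at 0.1 µM and ATRA at 1 µM, Meis3 stood at 15.0 and 4.26 ppm, a log2 ratio of 1.60 (0.15 to 2.45 over quadrant pairs). Pbx4 stood at 7.43 and 23.7 ppm, a log2 ratio of -1.55 (-2.16 to -1.29). These 2 genes were past 2-fold, in opposite directions, where 27.3% of all 13732 genes were past it, and the median of all genes was 0.04. Their quadrants did not overlap, as for 37% of all genes. The other 4 had ratios from 0.14 for Pbx3 to 0.36 for Pbx2, with overlapping quadrants. In even rows alone Meis3 was at 1.21 and Pbx4 at -1.12, and in odd rows alone at 2.17 and -1.96. Pbx2 was at 0.70 in even and -0.16 in odd rows.

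In BMS961+BMS641 and BMS753, Meis1 stood at 56.4 and 89.2 ppm, a log2 ratio of -0.65, and Pbx3 at 42.6 and 63.1 ppm, a ratio of -0.56. Pbx4 had -0.70, Meis3 0.51, Meis2 0.16 and Pbx2 0.01. No member was past 2-fold, against 34.4% of all 14973 genes. The median of all genes was -0.64, so the ratios of Meis1, Pbx3 and Pbx4 lay near those of the bulk of genes, and Meis3 stood 1.15 above it. The quadrants of Meis1 and Pbx3 did not overlap, where 41.7% of all genes had no overlap. Pbx2 was at 0.77 in even and -0.84 in odd rows.

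**Figure D4:**
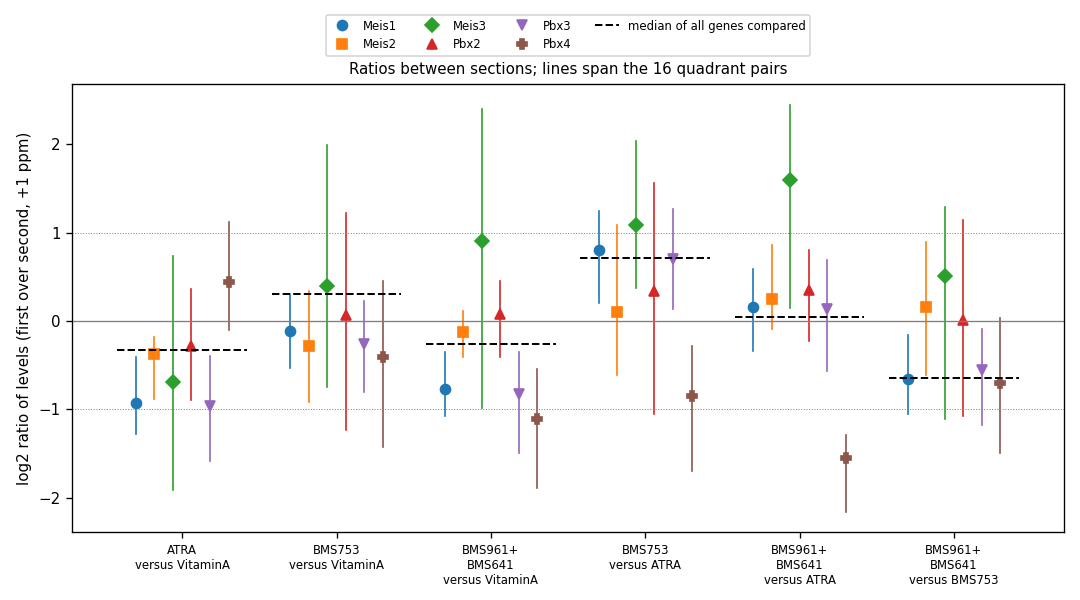
Log2 ratio of levels for the 6 genes in each of the 6 comparisons (points), with lines that span the 16 pairs of quadrants and a dashed line at the median of all genes compared; dotted lines mark 2-fold. In BMS961+BMS641 versus ATRA, Meis3 stands at 1.60 and Pbx4 at -1.55 while all genes centre on 0.04.

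Detection followed the genomic span of a gene, with Spearman correlations of 0.799 to 0.837 over genes of a section, which are not independent replicates. The 6 genes were therefore compared with others of like span, in 50 bins by the spans of the GRCm38.p6 annotation. Pbx2, with the shortest span of the 6, was detected far more often than genes of its size. It exceeded 97.4%, 97.8%, 96.9% and 97.1% of them in VitaminA, ATRA, BMS753 and BMS961+BMS641, where the medians were 3.08%, 1.69%, 1.92% and 2.74% of spots. Meis2, with the longest span, exceeded 85.6%, 84.4%, 82.5% and 80.2% of its like. Pbx3, also long, exceeded only 44.1%, 30.5%, 22.8% and 25.6%.

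Meis1 lay in the middle of genes of its span, above 54.4%, 44.6%, 55.7% and 39.7% of them. Meis3 exceeded 94.0% of its like in BMS961+BMS641, 84.4% in BMS753, 73.3% in VitaminA and 70.4% in ATRA. Pbx4 exceeded 81.3% in ATRA, 59.3% in VitaminA, 45.9% in BMS961+BMS641 and 38.8% in BMS753. The places of Meis3 and Pbx4 among genes of their span thus changed most between sections, and in opposite ways between ATRA and BMS961+BMS641.

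**Figure D5:**
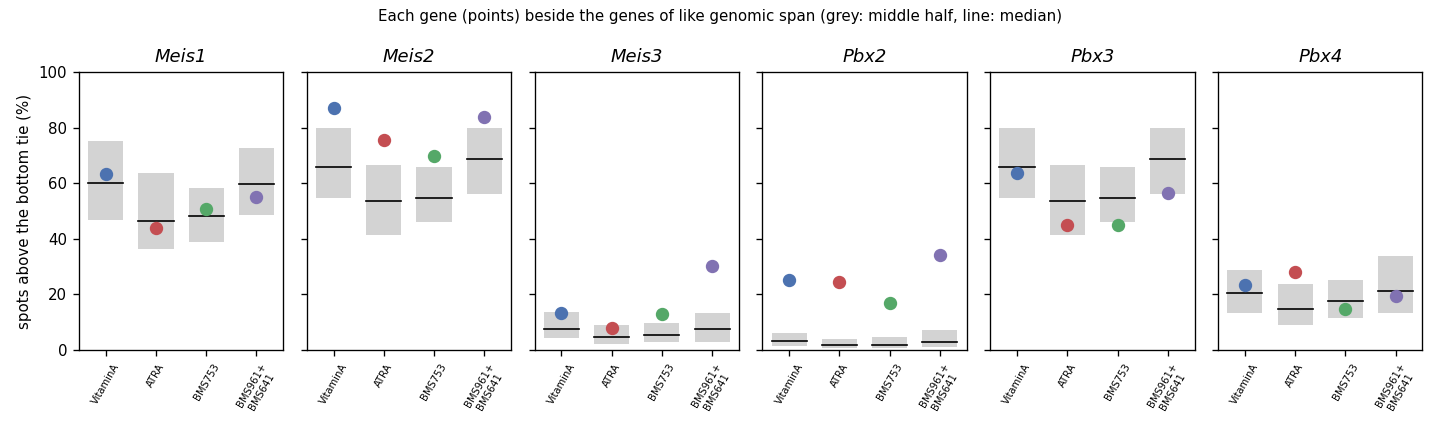
Percent of spots in which each gene was detected (points) beside genes of like genomic span, shown as a grey box over their middle range and a line at their median, for the 4 sections. Pbx2 lies above the box in every section (25.2% of VitaminA spots against a median of 3.08%), and Meis3 stands farthest above it in BMS961+BMS641 (30.1% against 7.40%).

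A Meis protein works with a Pbx protein, and spots were therefore counted by the members detected in them together. A mean of 2.76 of the 6 genes was detected per VitaminA spot, 2.25 per ATRA spot, 2.11 per BMS753 spot and 2.79 per BMS961+BMS641 spot. At least 1 Meis and at least 1 Pbx gene were detected in 73.0%, 57.0%, 51.8% and 68.5% of spots. None was detected in 13, 50, 52 and 23 spots, and all 6 in 3, 11, 2 and 13.

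These counts moved with the richness of the spot. The number of members and the number of detected genes had a Spearman correlation over spots of 0.53, 0.69, 0.72 and 0.76 (552, 593, 469 and 365 spots of 1 library each). ATRA spots with 4 or more members had a median of 5583.5 detected genes, and those with 0 or 1 had 2318.5. Meis2 and Pbx3 were detected together in 58.2%, 37.4%, 35.2% and 51.2% of spots. The product of their shares within 5 groups of spots of like richness was 57.5%, 38.0%, 35.7% and 50.8%, so joint detection was near what spot richness alone gives. Over all 15 pairs and 4 sections the correlation of detection, with richness removed, lay between -0.14 and 0.11, which is too weak to call any pair a match.

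Likeness of neighbouring spots was measured by Moran's I, which is near 0 for no spatial order and rises as neighbours resemble each other. It was 0.06, 0.08, 0.11 and 0.07 for Meis2. These values exceeded those of 82.4%, 85.1%, 86.4% and 86.0% of genes detected in at least 10% of the spots. Pbx3 in ATRA had the highest value, 0.11, above 93.7% of genes. Meis3 had values of 0.0125, -0.0054, 0.032 and -0.00432, below the medians of these genes in each section (0.0183, 0.0288, 0.038 and 0.0207). The number of detected genes itself had a Moran's I of 0.44, 0.45, 0.55 and 0.33, and with it removed detection of the 6 genes had values between -0.04 and 0.05. Meis2 then exceeded 86.4%, 61.0%, 35.5% and 36.3% of genes in the same order of sections. Pbx3 exceeded 95.4% of genes in ATRA but 11.5% in BMS753, and Pbx4 exceeded 90.2% in ATRA.

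Rim spots, those with fewer than 8 occupied neighbours, held the members in shares that differed by section and gene. Pbx3 in VitaminA was detected in 58.1% of 217 rim spots and 67.5% of 335 interior spots, where the median number of detected genes was 4251 and 4950. Meis3 in BMS961+BMS641 was detected in 26.0% of 177 rim and 34.0% of 188 interior spots, with 4485 and 4402 detected genes. Pbx4 in the same section was detected in 15.3% of rim and 23.4% of interior spots. The reverse was also seen: Meis3 in VitaminA was detected in 14.3% of rim and 12.5% of interior spots, and Pbx2 in ATRA in 26.8% and 23.3%.

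The genes most like each member over spots were ranked by the mean Spearman correlation of signal across the 4 sections, among 7693 genes for Meis1. The first was St6gal2 for Meis1 (0.11), Ube2g1 for Meis2 (0.20), Odaph for Meis3 (0.14), Itih4 for Pbx2 (0.20), Tll2 for Pbx3 (0.16) and Cwf19l2 for Pbx4 (0.19). All of these means are weak, and none of the genes was another member. The signal ranked here still held the lowest tie of each spot. For Cwf19l2 and Pbx4 the correlation was 0.29 (ATRA) and 0.35 (BMS961+BMS641), but 0.05 (VitaminA) and 0.08 (BMS753). Pbx4 had a value above 0 in 86.0% of ATRA spots and was detected in 28.2%, and for BMS961+BMS641 these shares were 74.0% and 19.5%. Both shares were 23.6% for VitaminA and 14.9% for BMS753. The part of the tie in this mean was not tested. Only genes detected in at least 10% of the spots of every section were ranked. Meis3, detected in 8.09% of ATRA spots, was therefore never a candidate for the other members.

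Other TALE genes were looked at as a list of 12, which holds the Pknox genes (Meis relatives that also bind Pbx), the Tgif and Irx genes, Mkx and the Pbx-binding protein gene Pbxip1. Counts of this list and of those below are read against the shares of all genes past 2-fold. These were 8.6% higher and 22.9% lower in ATRA against VitaminA, 17.7% higher and 10% lower in BMS753 against VitaminA, and 10.2% higher and 19.9% lower in BMS961+BMS641 against VitaminA. In ATRA against VitaminA 1 of 10 measured was past 2-fold higher and 3 lower, with a median of -0.65 against -0.33 for all genes. In BMS961+BMS641 against VitaminA 1 was higher and 3 lower, with a median of -0.68 against -0.25. In BMS753 against VitaminA 0 were higher and 2 lower, with a median of -0.38 against 0.31.

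Pknox2 had 118.7 ppm in VitaminA, 67.1 ppm in ATRA, 162.8 ppm in BMS753 and 402 ppm in BMS961+BMS641, where it was detected in 95.3% of spots, and the order of its sections was that of Meis3. Pknox1 was highest in ATRA, as Pbx4 was, with 22.8, 48.1, 36.8 and 14.1 ppm. These genes were singled out after their values were seen.

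Hox genes, the partners of the Meis and Pbx proteins, were listed as 32 symbols, of which 17 reached 5 ppm in ATRA or VitaminA. There 3 were past 2-fold higher and 2 lower, with a median of -0.47 against -0.33 for all genes. In BMS753 against VitaminA 1 of 18 was higher and 2 lower, with a median of 0.29 against 0.31, and in BMS961+BMS641 against VitaminA 1 of 17 was higher and 3 lower, with a median of -0.31 against -0.25. These values rest on the lowest tie of each spot. With that tie set to 0, 3 Hox genes were past 2-fold higher and 6 lower in ATRA against VitaminA (median -0.73, all genes -0.58). Of all genes, 9.14% were then past 2-fold higher and 31.2% lower in ATRA against VitaminA. The shares were 13.3% and 12.6% in BMS753 and 10.3% and 28.3% in BMS961+BMS641, each against VitaminA. The median in BMS753 against VitaminA was then -0.44 (all genes 0.11), with 0 higher and 6 lower, and in BMS961+BMS641 against VitaminA it was -0.52 (all genes -0.50), with 1 higher and 7 lower.

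Of 17 other genes known to respond to retinoic acid, such as Rarb, Cyp26b1 and Dhrs3, 14 reached 5 ppm in ATRA or VitaminA. In ATRA against VitaminA 1 of these was past 2-fold higher and 5 lower, with a median of -0.59. In BMS753 against VitaminA 1 was higher and 4 lower (median -0.25), and in BMS961+BMS641 against VitaminA 2 were higher and 4 lower (median -0.57). With the lowest tie at 0 the numbers lower were 7, 4 and 6, where 31.2%, 12.6% and 28.3% of all genes were past 2-fold lower. The medians were then -0.94, -0.41 and -0.70, against -0.58, 0.11 and -0.50 for all genes. The 21 genes listed for the striatal and olfactory bulb lineages of Meis2 had medians of -0.27, 0.22 and -0.23 in the 3 comparisons, over the 15 genes that reached 5 ppm, and of -0.68, 0.03 and -0.61 with the lowest tie at 0. The 18 hindbrain genes, some of them Hox genes, had medians of -0.49, 0.08 and -0.76 over the 9, 10 and 10 genes that reached 5 ppm, and of -0.80, -0.47 and -0.81 with the lowest tie at 0.

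The tissue was checked by marker lists. All 15 pan-neuronal genes were detected in every section, for example Syt1 in 88.5 to 95.6% of spots and Nefl in 4.05 to 8.22%, with a summed level of 1313 ppm in VitaminA, 1060 ppm in ATRA, 1471 ppm in BMS753 and 1648 ppm in BMS961+BMS641. The sum does not stand for the list: Stmn2 alone had 14.3 ppm in VitaminA and 533 ppm in BMS961+BMS641, while 11 of the 15 were lower there than in VitaminA, with a median log2 ratio of -0.66. Of all genes compared, 35.2% were higher in BMS961+BMS641 than in VitaminA, and their median was -0.25. Markers of other cell types also differed between the sections, and their lists did not share a single order. The 9 epithelial genes summed to 179, 126, 208 and 1621 ppm, of which Epcam alone had 11.5, 10.4, 6.36 and 921 ppm, and Krt5 and Krt14 stayed at 4.25 ppm or less. The 10 mesenchymal genes summed to 342, 175, 227 and 123 ppm. Of these, Lum had 140, 12.5, 27.2 and 12.9 ppm and Acta2 had 78.4, 2.30, 6.76 and 7.91 ppm. The 9 measured endothelial and blood genes summed to 1123, 635, 563 and 384 ppm, of which Flt1 alone had 761, 449, 245 and 194 ppm. In BMS753 against VitaminA 6 mesenchymal genes were higher and 3 lower, and 4 endothelial and blood genes were higher and 4 lower. Of all genes compared, 63.8% were higher there. In ATRA and in BMS961+BMS641 against VitaminA 7 genes of each of these 2 lists were lower, of 9 mesenchymal and 8 endothelial and blood genes compared. Of all genes, 35.0% and 35.2% were higher in these comparisons. The 7 measured microglial genes summed to 85.7, 79.3, 107.5 and 146.7 ppm (Cx3cr1 alone 22.7, 25.2, 37.7 and 102 ppm, and Tmem119 36.1, 15.4, 24.1 and 14.6 ppm), and the 9 pluripotency genes to 417, 159, 285 and 280 ppm. No measured gene of these lists was undetected in a whole section. The part of these cells and of the array rows in the Meis and Pbx values was not tested.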

How the data were processed

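Organoid cryosections were placed on printed poly-T DNA arrays with a barcode for each position and libraries were run on a NovaSeq instrument (per the labels' protocols). The authors deposited 1 table of signal per section, genes by spots, whose file names mark it as quantile-normalised. Reads refer to mm9 (per the submitters' processing notes). Aligner and counting tool: not given in the sources used here. Because the signal tables hold no counts, depth is unknown, and a single section per group allowed no test across samples.

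Per spot, zeros and the lowest run of values in file order were taken as 1 tie. Levels were mean signal in ppm; log2 ratios had 1 ppm added and left out genes below 5 ppm in both sections. Quadrants came from median positions. Genomic spans and promoters came from RefSeq tables of GRCm38.p6, used for order and for the windows named only. The 6 genes are always named, and per member the 3 genes with the highest mean Spearman correlation over spots were kept. Members and gene lists were chosen with earlier results of these data known. Scripts used Python 3.11.15 with numpy 2.4.6, pandas 2.3.3, scipy 1.17.1 and matplotlib 3.10.9 and were tested on simulated data. Alternatives covered scaling, ties, pseudocount, filters, centring, spot richness and array rows. The monolayer single-cell and chromatin experiments are not analysed here.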

Additional observations from a re-analysis of the deposited data

How the results depend on the processing

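No paired analysis was possible because each group has 1 section, and for the same reason no replicate could be left out. The array rows and the window of spot richness were chosen as alternatives after seeing the data. Over all alternatives, 43 of 525 log2 ratios of single members changed sign, 17 of them for Pbx2, and none did that had been past 2-fold. Meis3 in BMS961+BMS641 over ATRA was past 2-fold in all 14 of its alternatives (1.11 to 2.20), and Pbx4 lower in 13 of 15 (-1.96 to -0.51). The exceptions were signal without scaling to ppm (-0.61) and the percent of spots with the gene (-0.51).

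The count of members past 2-fold in ATRA versus VitaminA was 0, and 2 without scaling to ppm, 1 in odd array rows and 1 without array row 50. In BMS753 versus VitaminA it was 0 in every alternative run. In BMS961+BMS641 versus VitaminA it was 1, but 0 with rank classes in place of signal, with a pseudocount of 5 ppm, with genes of at least 20 ppm and in even rows, and 2 with the lowest tie at 0 in spots of 3000 to 5000 genes. It stayed at 1 without scaling, by percent of spots and under both centrings, but the gene was then Meis3, higher, and not Pbx4, lower. In BMS753 versus ATRA it was 1, but 0 without scaling, with each spot divided by its own sum, with a pseudocount of 5 ppm, with genes of at least 20 ppm, by percent of spots and in even rows, and 2 in odd rows. Under both centrings the 1 gene was Pbx4, lower, in place of Meis3, higher. In BMS961+BMS641 versus ATRA it was 2, but 5 without scaling, where 47.7% of all genes (42.2% higher) were past 2-fold, and 1 with genes of at least 20 ppm or by percent of spots. In BMS961+BMS641 versus BMS753 it was 0, but 2 without scaling, and 1 by percent of spots, when centred on all genes, when centred within 10 bins of genomic span, and with the lowest tie at 0 in spots of 3000 to 5000 genes. The minimum of 20 ppm left 3 members in BMS961+BMS641 versus VitaminA and 4 each in BMS753 and BMS961+BMS641 versus ATRA, and removed Pbx4 in the first and Meis3 in the others, so the lower counts there come from the filter. Why the other settings differ was not tested. Depth is unknown, so no limit of detection can be given for Meis3, Pbx2 or Pbx4.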

Other observations

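In array row 50 alone, where the ligand sections had their most detected genes, Meis1 was detected in 17 of 20 ATRA spots, 13 of 15 BMS753 spots and 14 of 14 BMS961+BMS641 spots, but in 5 of 16 VitaminA spots. Pbx2 was detected in 14, 7, 12 and 3 of the same spots. The median number of detected genes in that row was 7683.5, 7301, 9957.5 and 2876.5 in this order of sections. The levels in that row, as shares of signal, were 46.4, 85.6, 54.2 and 64.4 ppm for Meis1. This row was picked after its values were seen.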
